A study of Mus musculus with 18 samples.

Results

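The genes described here are the G1 cyclins Ccnd1, Ccnd2, Ccnd3 and Ccne1, the cyclin D kinases Cdk4 and Cdk6, the CDK inhibitors Cdkn1a, Cdkn1b and Cdkn1c, and the retinoblastoma gene Rb1. They were chosen by gene symbol, and each of the 10 had 1 row among the 43346 genes of the count table and was among the 26717 genes with a mean count above 0 that were tested. RNA was sequenced from cells sorted out of crypts of the small intestine (SI) and the large intestine (LI) of mice. The 18 libraries fall into 6 groups of 3 replicates, 1 group for each site and level of GFP. All animals were untreated C57BL/6 mice with the genotype written Lgr5_eGFP_Iris_creERT2 in the labels, in which the Lgr5 locus drives GFP and an inducible Cre, and they were 8 to 20 weeks old by the labels. EPCAM-positive cells were gated on GFP, and high, medium and low GFP stood for centre, border and row >3 Lgr5+ cells, that is, for cells at the crypt base, at the edge of the stem cell zone and above it. A group is therefore a range of GFP, and a low GFP signal need not come from a cell at one place in the crypt. The labels call the replicates by number and do not say which animal gave which library. The study asked whether Lgr5+ cells at these positions differ, and whether they do so in the SI and the LI alike.

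D-type cyclins carry growth factor and Wnt signals to the cell cycle by binding and activating CDK4 and CDK6, and these kinases phosphorylate the retinoblastoma protein and so loosen its hold on E2F transcription factors. Cyclin E with CDK2 completes this phosphorylation at the entry into S phase. The Cip/Kip proteins p21 (Cdkn1a), p27 (Cdkn1b) and p57 (Cdkn1c) bind cyclin-CDK complexes, and in the crypt the loss of cycling as cells leave the base and differentiate has long been tied to such inhibitors.

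The libraries held between 8312093 and 31940965 counts with a median of 21934851.5, and the lowest normalised count of a member in any library was 28.4. The SI replicate 3 libraries stood apart. Genes that are high in the LI and near absent from SI replicate 1 reached 64.3% of the level seen in the LI in SI centre replicate 3 (47 genes), 84.7% in SI border replicate 3 (42 genes) and 79.7% in SI row >3 replicate 3 (30 genes), against 1.63%, 1.38% and 1.09% in replicate 2. The LI genes thus go against the SI label of the 3 libraries, which is in doubt. Other genes ran with the label. In SI centre, border and row >3 replicate 3, the 7 Paneth cell markers summed to 1907, 562 and 216 CPM (reads per 1e+06 counted reads, TMM-scaled). No LI library had more than 12.6 CPM, but the border and row >3 values were the lowest of their SI groups. The 12 immediate-early genes summed to 1332, 1469 and 1591 CPM there, against at least 2691 CPM in LI libraries, but each of these values was the highest of its SI group. SI means, SI contrasts and differences between SI and LI with n = 3 include the 3 libraries. Values without these 3 libraries are therefore given beside many of the results. Lgr5 itself fell along the sort, from 3959 ± 1423 normalised counts (mean ± SD, n = 3) in centre to 159 ± 126 in row >3 cells of the SI and from 2359 ± 201 to 287 ± 168 in the LI. The epithelial genes Epcam and Cdh1 had at least 689 and 699.97 CPM in each library, whereas 8 immune markers summed to at most 30.6 CPM and 8 stromal and endothelial markers to at most 12.1 CPM. In bulk samples of this kind, fewer cells of a type and less RNA per cell cannot be told apart.

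Compared per length of their exons, Ccnd2 and Ccnd1 were the most abundant of the 10 genes, with 26.0 ± 10.4 and 24.8 ± 6.49 CPM per kb (mean ± SD over the 18 libraries). Cdk4 followed with 19.8 ± 6.92 CPM per kb and Cdkn1b, the p27 gene, with 13.5 ± 1.56. Levels of the other genes were lower and lay close together, with 6.61 ± 4.80 for Cdkn1a, 6.12 ± 2.53 for Cdk6, 5.71 ± 1.96 for Rb1, 4.87 ± 3.39 for Cdkn1c, 3.78 ± 1.51 for Ccne1 and 3.07 ± 0.587 for Ccnd3. Each neighbouring pair in this order overlapped within 1 SD apart from Cdkn1b and Cdkn1a. Cdkn1a had the widest range, with its group means 11.99-fold apart on the scale of CPM per kb, against 1.38-fold for Cdkn1b.

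**Figure D1:**
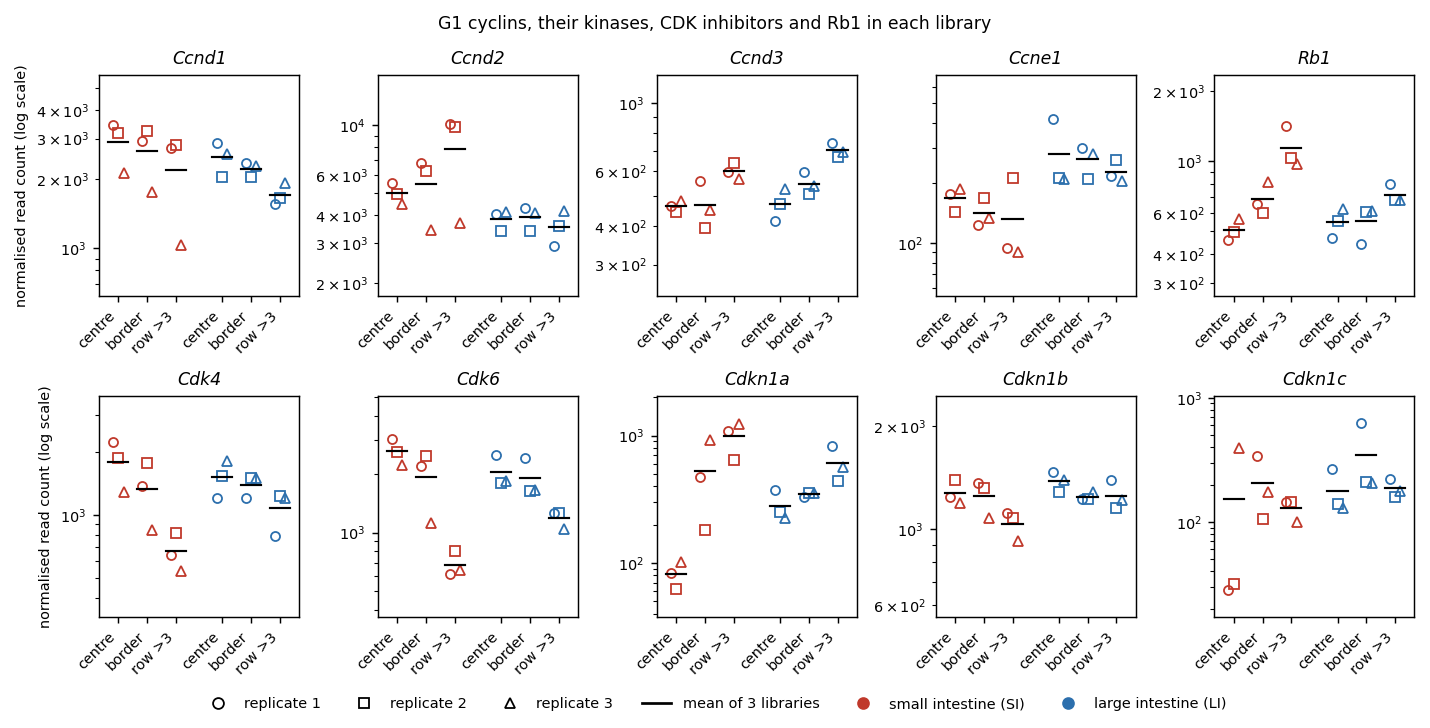
Normalised read counts of the 10 genes in each of the 18 libraries, on log axes that differ between panels; symbols stand for replicates, colours for the site and horizontal lines for the mean of 3 libraries. Cdk4 and Cdk6 are lowest and Cdkn1a and Rb1 highest in row >3 cells of the SI, and SI replicate 3 (triangles) lies apart from replicates 1 and 2 for Ccnd1 at each level, for Ccnd2 in border and row >3 cells and for Cdkn1c in centre cells.

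In the SI, row >3 cells had less Cdk4 and Cdk6 and more Cdkn1a and Rb1 than centre cells, and these 4 of the 10 genes passed the quasi-likelihood test of edgeR, with p-values adjusted by Benjamini-Hochberg over all genes tested (2 higher, 2 lower), where 13.2% of all genes did. All 4 held in each of the 15 alternative fits of this comparison. When replicate numbers were fitted as a block inside each site, 5 members passed, where 22.8% of all genes did, and without the SI replicate 3 libraries 6 did, where 17.1% of all genes did. The other 6 members had log2 fold changes between -0.40 and 0.65 in the main fit. In the LI the same contrast gave 0 of 10 members and 0.0187% of all genes, with 3 members at an unadjusted p under 0.05 and 1 called by DESeq2, which called 0.348% of all genes. The block gave 4 members there (2 higher, 2 lower), where 2.59% of all genes passed, and the fit without the SI replicate 3 libraries gave 2 of 10, where 1.9% of genes did. The 3 libraries of each group did not overlap for 6 members in the SI and for 5 in the LI, against 25.1% and 14.9% of all genes.

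**Figure D2:**
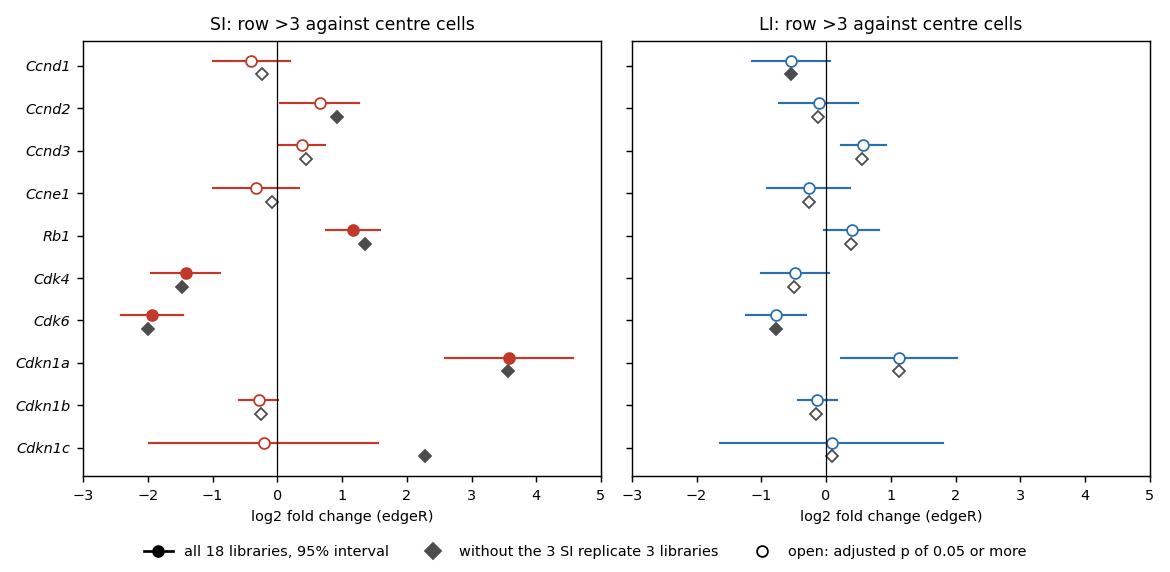
Log2 fold changes of row >3 against centre cells in the SI (left) and the LI (right); circles with lines give the fit on 18 libraries with its 95% interval, diamonds the fit without the 3 SI replicate 3 libraries, and filled symbols an adjusted p under 0.05. Cdk4, Cdk6, Cdkn1a and Rb1 are filled in the SI with or without these libraries, and Cdkn1c moves from -0.21 to 2.28 when they are left out.

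Between border and centre cells, 0 of the 10 genes passed in the SI, where 0.0112% of all genes did, with 2 members at an unadjusted p under 0.05 and 1, Cdkn1a, called by DESeq2, which called 0.782% of all genes. Cdkn1a was also called with the block, where 2.32% of all genes passed, and without the SI replicate 3 libraries, where 0.963% did. In the LI 0 members passed, with 0% of all genes in the main fit and 0% with the block, 0.00382% without the SI replicate 3 libraries, 0 members at an unadjusted p under 0.05 and 0 called by DESeq2 (0% of all genes). The libraries of the 2 groups did not overlap for 2 members in the SI, Cdkn1a and Rb1, and for 0 in the LI, against 8.75% and 5.44% of all genes.

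Ccnd1 (chr7:144929931-144939925, minus strand, GENCODE M21 on GRCm38, as for the other genes), the D-type cyclin known as a Wnt target, had lower means in row >3 than in centre cells at both sites, differences that did not pass in the main fit. Its normalised counts in replicates 1, 2 and 3 were 3424, 3162 and 2126 in SI centre, 2937, 3252 and 1750.5 in SI border and 2734, 2818 and 1029 in SI row >3 cells. Replicate 3 was the lowest in each of these groups, and the groups overlapped. In the LI they were 2864, 2037 and 2575 in centre libraries, 2347, 2034 and 2282 in border and 1559.5, 1649.7 and 1916 in row >3 libraries, and the centre and row >3 libraries did not overlap. The log2 fold change of row >3 against centre cells was -0.40 ± 0.28 (SE) in the SI (adjusted p = 0.469, edgeR, 95% interval -1.002 to 0.20) and -0.54 ± 0.29 in the LI (adjusted p = 0.770, 95% interval -1.14 to 0.06). With the replicate block, edgeR called Ccnd1 lower in row >3 cells at both sites, with -0.48 in the SI (adjusted p = 0.0157) and -0.53 in the LI (adjusted p = 0.0485). Without the SI replicate 3 libraries the values were -0.24 (adjusted p = 0.429) and -0.55 (adjusted p = 0.0385). LTO1 shares 1100 of the 4709 exon bases of Ccnd1 on the opposite strand and reached a group mean of 16.5 CPM. The strand used for counting is not given, so it is not known how reads from the shared bases were counted.

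Ccnd2 (chr6:127125162-127152193, minus strand), the D-type cyclin that led the order by level, was highest in row >3 cells of the SI in replicates 1 and 2. The normalised counts in replicates 1, 2 and 3 were 5525, 4975 and 4483 in SI centre, 6838, 6265 and 3435 in SI border and 10092, 9826 and 3684 in SI row >3 cells. Replicates 1 and 2 thus rose at each step of the sort and replicate 3, which carries both LI genes and Paneth cell markers, did not. In the LI the counts were 4043, 3393 and 4131 in centre libraries, 4297, 3389.8 and 4091 in border and 2908, 3579 and 4167 in row >3 libraries, which overlapped. The log2 fold change of SI row >3 against centre cells was 0.65 ± 0.29 (adjusted p = 0.172, edgeR), and 0.93 (adjusted p = 3.1e-04) without the 3 SI replicate 3 libraries or 0.998 (adjusted p = 0.00397) without SI row >3 replicate 3 alone. In the LI it was -0.11 ± 0.29 (95% interval -0.72 to 0.50).

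Ccnd3 (chr17:47505051-47599691, plus strand), the least abundant D-type cyclin, ran the other way from Ccnd1 in the LI. Its normalised counts were 416, 472 and 525 in LI centre, 597, 507 and 537 in LI border and 741, 670.4 and 696 in LI row >3 cells, and each row >3 library was above each centre and border library. In the SI they were 464, 444 and 481 in centre libraries, 557, 395 and 451 in border and 598, 637 and 568 in row >3 libraries, where again each row >3 library was above each centre library. The log2 fold change of row >3 against centre cells was 0.57 ± 0.17 in the LI (adjusted p = 0.435, edgeR) and 0.38 ± 0.17 in the SI (adjusted p = 0.166). With the block the LI value was 0.57 and passed (adjusted p = 0.0371), and the SI value of 0.39 did not (adjusted p = 0.0640), nor did that of 0.45 without the SI replicate 3 libraries (adjusted p = 0.147). Bysl overlaps Ccnd3 on the opposite strand over 361 exon bases and reached 27.1 CPM, which is near the level of Ccnd3 itself.

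Ccne1 (chr7:38097984-38107534, minus strand), the cyclin that activates CDK2 at the G1/S transition, did not pass the test along the sort at either site. It had 176, 143 and 186 normalised counts in replicates 1, 2 and 3 of SI centre and 94.4, 211 and 90.5 of SI row >3 cells, which overlapped. LI centre libraries had 418, 211 and 209 and LI row >3 libraries 217, 261 and 204. The log2 fold change of row >3 against centre cells was -0.33 ± 0.32 in the SI (95% interval -0.997 to 0.34) and -0.27 ± 0.31 in the LI (95% interval -0.91 to 0.37), so that a change of more than 1 log2 unit in either direction lies outside both intervals. Without the SI replicate 3 libraries the SI value was -0.08 (adjusted p = 1).

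The cyclin D kinases fell together towards low Lgr5 in the SI. Cdk4 (chr10:127063534-127067920, plus strand) had 2229, 1861 and 1292 normalised counts in replicates 1, 2 and 3 of SI centre, 1374, 1764 and 843 of SI border and 646, 819.8 and 540.1 of SI row >3 cells. Each row >3 library was below each centre and border library. Cdk4 was 2.67-fold lower in row >3 than in centre cells, with a log2 fold change of -1.42 ± 0.26 (adjusted p = 8.1e-04, edgeR) and of -1.48 (adjusted p = 9.7e-05) without the SI replicate 3 libraries. In the LI, the libraries had 1199.7, 1534 and 1803 in centre libraries, 1199.6, 1495 and 1496 in border and 796, 1235 and 1203 in row >3 libraries. Here row >3 and centre libraries overlapped, and the log2 fold change of -0.49 ± 0.25 did not pass (adjusted p = 0.755, 95% interval -1.01 to 0.04). Tspan31 shares 641 exon bases with Cdk4 on the opposite strand and reached a group mean of 31.9 CPM, close to the 32.6 CPM of Cdk4 in SI row >3 cells.

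Cdk6 (chr5:3341485-3531008, plus strand), the partner kinase, showed the larger fold. The normalised counts in replicates 1, 2 and 3 were 3045, 2590.5 and 2220.4 in SI centre, 2189, 2466 and 1113 in SI border and 609, 798 and 643 in SI row >3 cells. Centre and row >3 libraries were far apart and did not overlap. Cdk6 was 3.82-fold lower in row >3 than in centre cells of the SI, with a log2 fold change of -1.93 ± 0.23 (adjusted p = 2.8e-05, edgeR) and of -1.997 without the SI replicate 3 libraries. In the LI the counts were 2515, 1791 and 1844 in centre libraries, 2421, 1642 and 1656 in border and 1267, 1267 and 1048 in row >3 libraries, and centre and row >3 libraries did not overlap there either. The log2 fold change was -0.77 ± 0.22 (adjusted p = 0.433), and it passed with the block (adjusted p = 0.0140) and without the SI replicate 3 libraries (adjusted p = 0.0142).

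RefSeq promoter windows from 250 bases before to 50 after a transcript start on GRCm38.p6 were held for 6 of the 10 genes, in 8 windows. They were searched on both strands for the E-box CACGTG, which MYC and related factors can bind, for the E2F letters TTTCCCGC and TTTGGCGC, and for a pair of p53 core letters, CATGNNNNNNCATG, and no E2F match was found in the 8 windows. The E-box occurs in 7.15% of the 32851 windows of the whole table, TTTCCCGC in 1.07%, TTTGGCGC in 0.514% and the p53 pair in 0.712%. The windows of Cdk4 and Cdk6 are shown because these kinases fell together in the SI and both hold the E-box, in capitals. That of Cdk4, chr10:127063285-127063584 on the plus strand, holds it 4 times and is 1 of 8 windows of the table (0.0244%) with 4 or more matches, and that of Cdk6, chr5:3343643-3343942 on the plus strand, holds it 1 time. A match is a run of letters and was not tested as a binding site.
Cdk4: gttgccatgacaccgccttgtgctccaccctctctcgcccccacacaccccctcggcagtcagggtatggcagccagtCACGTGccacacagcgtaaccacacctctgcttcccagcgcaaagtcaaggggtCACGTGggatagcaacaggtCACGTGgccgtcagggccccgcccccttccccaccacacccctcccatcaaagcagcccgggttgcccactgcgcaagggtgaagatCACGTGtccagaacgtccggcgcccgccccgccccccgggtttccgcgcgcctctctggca
Cdk6: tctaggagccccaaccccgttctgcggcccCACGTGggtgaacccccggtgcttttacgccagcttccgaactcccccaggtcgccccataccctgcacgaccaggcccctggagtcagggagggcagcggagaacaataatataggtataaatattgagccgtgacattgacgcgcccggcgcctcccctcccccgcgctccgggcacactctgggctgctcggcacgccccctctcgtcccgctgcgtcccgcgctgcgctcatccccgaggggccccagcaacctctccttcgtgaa

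Cdkn1a (chr17:29090976-29100727, plus strand), the p21 gene and a classical p53 target, had the widest range of the members and was lowest in SI centre cells. It had 83.5, 62.6 and 102 normalised counts in replicates 1, 2 and 3 of SI centre, 477, 181 and 922 of SI border and 1078, 645 and 1235 of SI row >3 cells. Each SI border and row >3 library was above each SI centre library, and within each replicate the count rose at both steps. Cdkn1a was 11.9-fold higher in row >3 than in centre cells of the SI, with a log2 fold change of 3.58 ± 0.47 (adjusted p = 1.4e-04, edgeR) and of 3.56 (adjusted p = 4.8e-06) without the SI replicate 3 libraries. Border against centre cells of the SI gave 2.69 ± 0.46 (adjusted p = 0.0701), just short of the threshold. It passed with the block (2.58, adjusted p = 2.5e-04), without the SI replicate 3 libraries (2.05, adjusted p = 0.0310), without SI centre replicate 3 alone (2.83, adjusted p = 0.0166), without SI border replicate 2 (3.10, adjusted p = 1.9e-04) and in DESeq2 (2.68, adjusted p = 6.4e-06). In all it passed in 7 of 15 alternatives, with adjusted p from 6.4e-06 to 0.842 over the 15. Markers of differentiated cells moved in this contrast too. With the block, 6 of 10 absorptive and 2 of 8 tuft markers were higher and 1 of 7 goblet markers was lower (2.32% of all genes). Without the SI replicate 3 libraries, 8 of 8 tuft, 2 of 7 goblet and 1 of 10 absorptive markers were higher (0.963%). The part of these cells in the border value of Cdkn1a was not tested.

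In the LI, Cdkn1a had a higher mean in centre cells and a smaller fold change than in the SI, and in the main fit neither difference passed (adjusted p = 0.0515 for centre cells and 0.227 for the step to row >3 cells, edgeR). The libraries had 372, 251 and 226 normalised counts in centre, 329, 353 and 354 in border and 828, 439.6 and 566 in row >3 cells. Row >3 libraries lay above centre libraries without overlap, and border and centre libraries overlapped. The log2 fold change of row >3 against centre cells was 1.12 ± 0.42 (adjusted p = 0.590, edgeR) and passed with the block (1.11, adjusted p = 0.0118). Border against centre cells gave 0.30 ± 0.42 (95% interval -0.60 to 1.19). Of the 2 RefSeq windows of Cdkn1a, the upstream one, chr17:29090729-29091028 on the plus strand, is shown because it holds the p53 pair 1 time, in capitals, and the other, chr17:29093519-29093818, holds none of the motifs.
Cdkn1a: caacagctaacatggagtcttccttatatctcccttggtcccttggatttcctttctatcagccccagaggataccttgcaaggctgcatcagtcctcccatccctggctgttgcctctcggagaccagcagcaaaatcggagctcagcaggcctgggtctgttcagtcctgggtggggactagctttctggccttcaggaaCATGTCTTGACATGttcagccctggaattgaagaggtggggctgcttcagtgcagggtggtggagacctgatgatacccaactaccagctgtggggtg

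Of 15 other genes known as p53 targets, 1 rose and 2 fell in SI row >3 against centre cells, where 13.2% of all genes passed, with a median log2 fold change of -0.25 against 0 over all genes tested. With the block 3 rose and 3 fell, where 22.8% of all genes passed, and without the SI replicate 3 libraries 4 rose and 1 fell, where 17.1% did. Their summed level was 180, 177 and 248 CPM in replicates 1, 2 and 3 of SI centre, 208, 181 and 279 CPM in SI border and 245, 197 and 292 CPM in SI row >3 cells. Within each SI replicate the sum was thus higher at both steps, as the count of Cdkn1a was, and a link between them was not tested. In the LI the sum fell from centre to border cells in each replicate, from 342, 347 and 331 to 279, 332 and 329 CPM. LI row >3 libraries had 305, 349 and 347 CPM and overlapped the centre libraries, whereas for Cdkn1a they lay above them. Each LI centre library was above each SI centre library. Between the sites in centre cells, 1 of the 15 genes was lower in the SI, where 1.99% of all genes passed. With the block over all libraries 4 were (5.61% of all genes), and without the SI replicate 3 libraries 7 were (10.9%). The gene that rose in the SI in the main fit was Fas, a death receptor, with 3.30 ± 0.55 (adjusted p = 4.0e-04, edgeR). Phlda3, a repressor of Akt signalling, fell with -2.45 ± 0.66 (adjusted p = 0.0141) and Tnfrsf10b, a death receptor for TRAIL, with -1.01 ± 0.30 (adjusted p = 0.0252).

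Cdkn1b (chr6:134920401-134925513, plus strand), the p27 gene, was the steadiest member. Its group means lay between 1037 ± 103 normalised counts in SI row >3 and 1382 ± 96.3 in LI centre cells, and single libraries between 921 and 1471. None of the 9 comparisons called Cdkn1b in edgeR, with or without the block or the SI replicate 3 libraries. In SI row >3 against centre cells, its log2 fold change was -0.29 ± 0.15 (adjusted p = 0.232, 95% interval -0.59 to 0.01, -0.26 without the SI replicate 3 libraries), and in the LI it was -0.14 ± 0.14 (95% interval -0.44 to 0.16).

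Cdkn1c (chr7:143458339-143461050, minus strand), the imprinted p57 gene, turned on 1 library. It had 28.4, 31.3 and 397 normalised counts in replicates 1, 2 and 3 of SI centre, 340.01, 105 and 176 of SI border and 146, 144 and 99.9 of SI row >3 cells. SI centre replicate 3 was the highest of the 9 SI libraries and the other two SI centre libraries were the lowest. With this library, Cdkn1c gave -0.21 ± 0.82 for row >3 against centre cells (adjusted p = 0.995, edgeR), and without the SI replicate 3 libraries 2.28 (adjusted p = 0.0389). Without SI centre replicate 3 alone it was 2.14 (adjusted p = 0.0137) for row >3 and 2.71 (adjusted p = 0.0193) for border against centre cells, against 0.38 ± 0.83 (adjusted p = 0.991) with it. Without all 3 SI replicate 3 libraries, border against centre cells gave 2.74 and did not pass (adjusted p = 0.158). In the LI, Cdkn1c had 268, 139 and 128 in centre libraries, 625, 208 and 207 in border and 223, 159 and 176 in row >3 libraries, and the groups overlapped.

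Tuft cell markers moved with Cdkn1c in some of these libraries and not in others. The 8 of them summed to 33.1, 39.7 and 409 CPM in replicates 1, 2 and 3 of SI centre, to 962, 311 and 477 CPM in SI border and to 387, 426 and 98.6 CPM in SI row >3 cells. SI centre replicate 3 thus held the highest tuft marker level of its group, by a wide margin, as it did for Cdkn1c. SI row >3 replicates 1 and 2 and SI border replicate 3 had similar or higher tuft levels. Their Cdkn1c counts were 146, 144 and 176, against 397 in SI centre replicate 3. In the LI, border replicate 1 was the highest library for both, with 323 CPM of tuft markers against 138 to 235 CPM in the others. Goblet cell markers were also higher in SI centre replicate 3, with 10645 CPM against 754 and 1341, and their part and that of the tuft markers in the level of Cdkn1c was not tested.

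Rb1 (chr14:73183673-73325822, minus strand), whose protein is the substrate of the cyclin D kinases, rose in the SI as they fell. It had 459, 498 and 564 normalised counts in replicates 1, 2 and 3 of SI centre, 654, 599 and 813 of SI border and 1414, 1033 and 969 of SI row >3 cells. The groups did not overlap at either step. Rb1 was 2.25-fold higher in row >3 than in centre cells, with a log2 fold change of 1.17 ± 0.20 (adjusted p = 5.4e-04, edgeR) and of 1.36 (adjusted p = 7.2e-05) without the SI replicate 3 libraries, whereas border against centre cells gave 0.44 ± 0.20 (adjusted p = 0.537) and, without these libraries, 0.35 (adjusted p = 0.909). In the LI the libraries had 467, 554 and 621 in centre libraries, 439, 606 and 609 in border and 799.8, 679 and 679 in row >3 libraries. Row >3 lay above the other levels in each library, but the log2 fold change of 0.39 ± 0.20 did not pass (adjusted p = 0.745, 95% interval -0.03 to 0.81). Rcbtb2 and Lpar6 overlap Rb1 on the opposite strand over 488 and 408 exon bases and reached 17.03 and 17.7 CPM.

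The make-up of each family is given as a description of levels per length, with no test. Ccnd2 made up 44.6% ± 3.40 of the D-type cyclin level in SI centre cells (mean ± SD, n = 3) and 60.4% ± 2.18 in SI row >3 cells, and Ccnd1 went from 50.9% ± 4.33 to 33.7% ± 1.26. In each of the 3 SI row >3 libraries, replicate 3 included, Ccnd2 was at least 58.0% and Ccnd1 at most 34.9%. In the LI, Ccnd2 went from 41.4% ± 1.58 in centre to 45.8% ± 2.76 in row >3 cells and Ccnd1 from 53.1% ± 2.59 to 44.3% ± 1.23. For Ccnd1 these libraries did not overlap, at 51.1% to 56.0% and 43.4% to 45.7%. For Ccnd2 they lay just apart, at most 42.57% in centre and at least 42.65% in row >3 libraries. Ccnd3 stood at 5.48% ± 1.01 in LI centre and 9.88% ± 1.60 in LI row >3 cells. The summed level of the D-type cyclins was 58.5 ± 9.16 CPM per kb in SI centre and 66.7 ± 28.7 in SI row >3 cells, and 50.2 ± 5.87 and 41.7 ± 5.51 in the LI, with overlap at both sites. Without replicate 3, the SI sums were 60.7 to 66.3 in centre and 82.9 to 83.6 CPM per kb in row >3 libraries (n = 2 each), which did not overlap, and the share of Ccnd2 was 42.6% and 61.6%. Cdk4 made up 74.3% ± 2.48 of the kinase level in SI centre and 80.6% ± 2.01 in SI row >3 cells, and in the LI its share overlapped, with 67.3% to 80.8% in centre and 73.0% to 83.2% in row >3 libraries.

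The kinase sum was lowest in row >3 cells of the SI, and at both sites row >3 libraries lay below those of the other levels. In the LI, row >3 libraries had 16.8 to 24.3 CPM per kb, border libraries at least 26.7 and centre libraries at least 27.1. Cdk4 and Cdk6 together had 36.0 ± 8.25 CPM per kb in SI centre, 26.3 ± 8.95 in SI border and 12.4 ± 2.27 in SI row >3 cells, and 31.1 ± 4.11, 28.7 ± 1.70 and 21.2 ± 3.93 in the LI. The 3 Cip/Kip genes together had 18.4 ± 4.76, 25.4 ± 5.64 and 27.8 ± 3.67 CPM per kb in the SI, and 23.8 ± 3.31, 27.3 ± 4.95 and 27.3 ± 4.64 in the LI. These inhibitor sums overlapped between centre and row >3 libraries at both sites, at 15.01 to 23.9 and 23.6 to 30.1 CPM per kb in the SI. Without replicate 3, the SI means were 15.7, 23.6 and 26.8 CPM per kb for the inhibitors (n = 2), whose centre and row >3 libraries then did not overlap, and 40.3, 31.0 and 13.4 for the kinases. Cdkn1a made up 6.23% ± 1.22 of the Cip/Kip level in SI centre, 26.7% ± 16.2 in SI border and 48.1% ± 10.4 in SI row >3 cells, where it stood beside 40.6% ± 7.33 for Cdkn1b. Without replicate 3 these shares of Cdkn1a were 6.40%, 17.7% and 43.1%, the last beside 43.9% for Cdkn1b. In the LI the share of Cdkn1a was 16.7% ± 2.01, 18.5% ± 4.03 and 31.4% ± 4.36, and Cdkn1b had the largest mean share at each level.

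**Figure D3:**
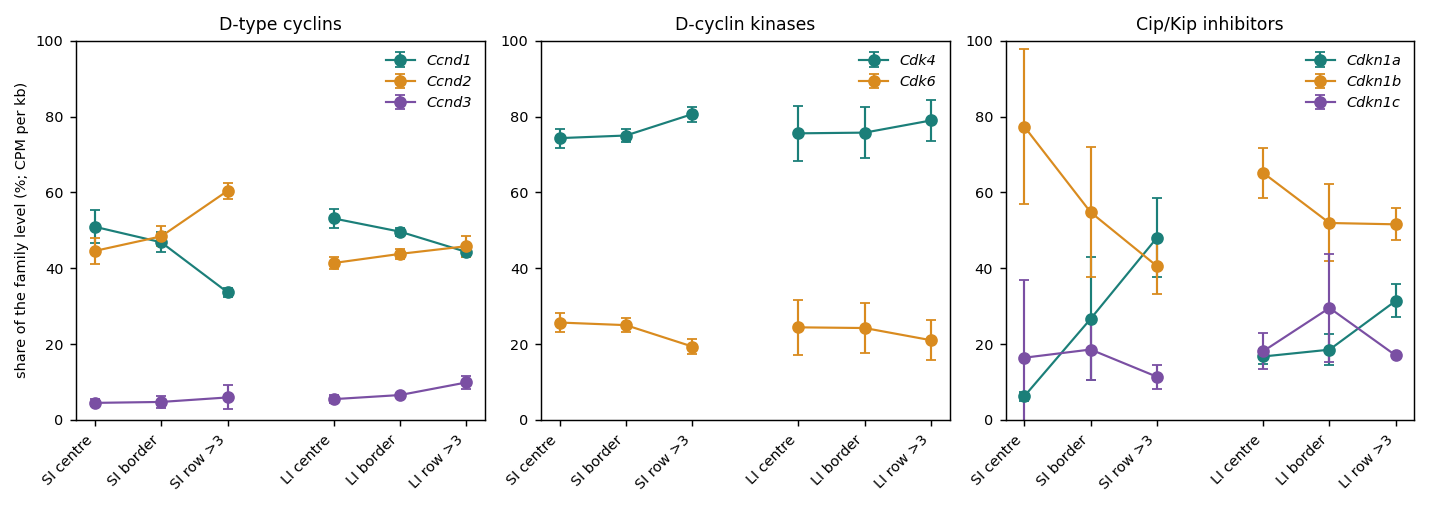
Share of each gene in the summed level (CPM per kb of exon) of the D-type cyclins, the cyclin D kinases and the Cip/Kip inhibitors; points are means and bars SD of 3 libraries in each group. The lines of Ccnd1 and Ccnd2 cross at both sites, and in LI row >3 cells they end close together at 44.3% and 45.8%. That of Cdkn1a reaches 48.1% in SI row >3 cells. The wide bars of Cdkn1c in SI centre and LI border cells come from 1 library in each.

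Between the sites, members passed the main fit in row >3 cells only. In centre cells 0 of the 10 genes passed (1.99% of all genes did), with 2 at an unadjusted p under 0.05 and 1 called by DESeq2 (4.64% of all genes), and in border cells 0 passed (1.76% of all genes, 4.27% with a replicate block across the 18 libraries), with 1 at an unadjusted p under 0.05 and 0 called by DESeq2 (4.54% of all genes). In row >3 cells 2 passed, Ccnd2 higher and Cdk6 lower in the SI, where 4.09% of all genes did, with 6 at an unadjusted p under 0.05 and 3, Ccnd2, Cdk6 and Rb1, called by DESeq2, which called 6.34% of all genes. Without the SI replicate 3 libraries, 2 members passed in centre cells, 1 in border and 4 in row >3 cells, where 10.9%, 8.11% and 12.2% of all genes did. Libraries of the 2 sites did not overlap for 3, 1 and 7 members in centre, border and row >3 cells, against 18.3%, 15% and 17.7% of all genes.

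In row >3 cells, the difference between SI and LI was 1.08 ± 0.29 for Ccnd2 (adjusted p = 0.0459, edgeR) and -0.86 ± 0.23 for Cdk6 (adjusted p = 0.0320). Both calls were near the threshold. Without SI row >3 replicate 1, 2 or 3 the adjusted p of Ccnd2 was 0.289, 0.163 and 1.9e-04 and that of Cdk6 0.215, 0.0397 and 0.0804. Without LI row >3 replicate 1, 2 or 3 it was 0.145, 0.173 and 0.0992 for Ccnd2 and 0.0753, 0.142 and 0.0649 for Cdk6. Without the 3 SI replicate 3 libraries, Ccnd2 stood at 1.48 (adjusted p = 1.6e-07) and Cdk6 at -0.77 (adjusted p = 0.00759), and Ccnd1 (0.69, adjusted p = 0.00240) and Rb1 (0.76, adjusted p = 0.00780) passed as well. Rb1 had 0.61 ± 0.20 (adjusted p = 0.0993) with all libraries and 0.72 (adjusted p = 0.0444) without SI row >3 replicate 3. DESeq2 called Rb1 with all libraries (0.66, adjusted p = 0.0143), and in all it passed in 4 of 14 alternatives. For Ccne1, which was lower in the SI at each level (-0.77, -0.94 and -0.83 from centre to row >3), the adjusted p was 0.236, 0.164 and 0.177, and in row >3 cells it was 0.0270 (log2 fold change -1.35) without SI row >3 replicate 2 and 0.301 (-0.60) without the SI replicate 3 libraries.

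In centre cells, Cdkn1a stood at the threshold. Each SI library was below each LI library, and the difference of -1.82 ± 0.46 had an adjusted p of 0.0515 (edgeR), against 0.00273 (log2 fold change -1.94) without the SI replicate 3 libraries, 0.0449 (-1.97) without SI centre replicate 3 alone and 0.00162 (-1.77) in DESeq2. It passed in 7 of 14 alternatives, with adjusted p from 0.00162 to 0.211 over the 14. Cdkn1c gave -0.26 ± 0.81 (adjusted p = 0.984) with all libraries and -2.56 (adjusted p = 0.0220) without the SI replicate 3 libraries, or -2.59 (adjusted p = 0.00938) without SI centre replicate 3. In border cells, Ccnd2 had 0.42 ± 0.29 (adjusted p = 0.612), and 0.70 (adjusted p = 0.00395) without the SI replicate 3 libraries.

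Immediate-early genes, which cells induce within minutes of growth factor or stress signals, also differed between the sites. The 12 of them summed to 946 to 1332 CPM in SI centre against 3134 to 3879 CPM in LI centre libraries, and 11, 11 and 10 of the 12 were called lower in the SI in centre, border and row >3 cells, where 1.99%, 1.76% and 4.09% of all genes were called. Their part in the difference of Cdkn1a in centre cells was not tested.

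Whether the step from centre to row >3 cells differed between the sites was itself tested, and 0 of 10 members passed, where 0% of all genes did, with 4 members at an unadjusted p under 0.05 and 1, Cdkn1a, called by DESeq2 (adjusted p = 0.0103, 0.558% of all genes). Replicate numbers were taken as pairs within a site from correlated deviations, so the block bears on this contrast. With the block, Cdk4 (-0.94, adjusted p = 0.0174), Cdk6 (-1.19, adjusted p = 0.0122) and Cdkn1a (2.51, adjusted p = 0.00279) passed in edgeR, where 2.32% of all genes did. Cdk4 and Cdk6 thus fell more and Cdkn1a rose more in the SI under the block. In the main fit the differences were -0.93 ± 0.36 for Cdk4 (adjusted p = 0.547), -1.16 ± 0.32 for Cdk6 (adjusted p = 0.253) and 2.46 ± 0.61 for Cdkn1a (adjusted p = 0.227). Without the SI replicate 3 libraries 3 passed, Ccnd2 (1.05, adjusted p = 0.00581), Cdk6 (-1.22, adjusted p = 0.00808) and Cdkn1a (2.44, adjusted p = 0.00813), where 3.27% of all genes did. For the step from centre to border cells 0 members passed in the main fit (0% of all genes), with the block (0%) or without the SI replicate 3 libraries (0.16%), with 1 member at an unadjusted p under 0.05 and 0 called by DESeq2 (0.00749% of all genes). That member was Cdkn1a, with 2.39 ± 0.62.

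Of 24 other G1/S regulators, 2 rose and 9 fell in SI row >3 against centre cells, where 13.2% of all genes passed (1963 higher, 1555 lower), with a median log2 fold change of -0.55 against 0 over all genes. Among those that fell, Myc, a transcription factor known to drive Ccnd2 and Cdk4, had -1.49 ± 0.21 (adjusted p = 7.5e-05, edgeR), E2f1, an activating E2F, -1.48 ± 0.31 (adjusted p = 0.00246), and Tfdp2, a dimer partner of E2F factors, -0.73 ± 0.16 (adjusted p = 0.00293). The genes that rose were Cdkn2b, the p15 inhibitor of CDK4 and CDK6, with 4.46 ± 0.69 (adjusted p = 4.8e-04), and E2f2, an activating E2F, with 1.40 ± 0.22 (adjusted p = 1.9e-04). In the LI 0 of the 24 passed in this contrast (0.0187% of all genes), with Myc lower under the block (2.59%) and 1 higher and 1 lower without the SI replicate 3 libraries (1.9%). Between the sites in row >3 cells, Cdkn2b (4.06 ± 0.67, adjusted p = 0.00183) and E2f2 (0.76 ± 0.21, adjusted p = 0.0441) were higher and Myc (-0.96 ± 0.20, adjusted p = 0.00743) was lower in the SI, where 4.09% of all genes passed, and the block over all libraries gave 2 higher and 3 lower (6.89%). In centre cells 1 of the 24 passed (1.99% of all genes), Ccng1, a cyclin G gene that p53 induces, with -1.03 ± 0.26 (adjusted p = 0.0395), and without the SI replicate 3 libraries 1 was higher and 1 lower (10.9%).

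Genes of the later phases fell with the cyclin D kinases. Of 20 S phase genes, 17 fell and 0 rose in SI row >3 against centre cells (median -1.22), where 13.2% of all genes passed, led by Mcm7, a subunit of the replicative helicase, with -1.38 ± 0.22 (adjusted p = 2.2e-04, edgeR), and of 18 G2/M genes, 8 fell and 0 rose (median -0.81). Their summed levels were 1352 to 2101 CPM of S phase and 2869.7 to 4249 CPM of G2/M genes in SI centre libraries, and 516 to 1038 and 1078 to 2988 CPM in SI row >3 libraries. In the LI, where 0.0187% of all genes passed, 0 of each list did, with medians of -0.44 and -0.47. The LI sums were 1592 to 1737 and 3134 to 3926 CPM in centre libraries, and 1022 to 1407 and 2212 to 3085 CPM in row >3 libraries. Row >3 lay below centre libraries without overlap for both lists in the LI, whereas in the SI the G2/M sums overlapped. With the replicate block, 20 S phase and 18 G2/M genes fell in the SI, where 22.8% of all genes passed, and 1 and 5 fell in the LI, where 2.59% did. Of the markers of differentiated cells, 5 of 7 goblet, 4 of 10 absorptive, 2 of 8 tuft, 1 of 9 enteroendocrine and 0 of 7 Paneth cell markers were higher and 1 goblet marker, Clca1, was lower in SI row >3 cells. With the block (22.8% of all genes), 9 absorptive and 5 enteroendocrine markers were higher, and without the SI replicate 3 libraries (17.1%) 8 tuft, 3 enteroendocrine and 1 Paneth cell markers were. Paneth cell markers summed to 1701 to 7867 CPM in SI centre and 216 to 4628 CPM in SI row >3 libraries, with overlap. Krt20, a keratin of mature surface cells, had 3.95 ± 0.56 (adjusted p = 5.4e-04) and Tff3, a trefoil factor of goblet cells, 3.99 ± 0.74 (adjusted p = 0.00351). Goblet markers summed to 754 to 10645 CPM in SI centre and 32503 to 51652 CPM in SI row >3 libraries, and to 7435 to 12129 and 16160.2 to 25209 CPM in the LI. The absorptive markers summed to 94.8 to 324 and 755 to 1943 CPM in the SI. The part of these cells in the values of Cdkn1a, Rb1, Cdk4 and Cdk6 was not tested.

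**Figure D4:**
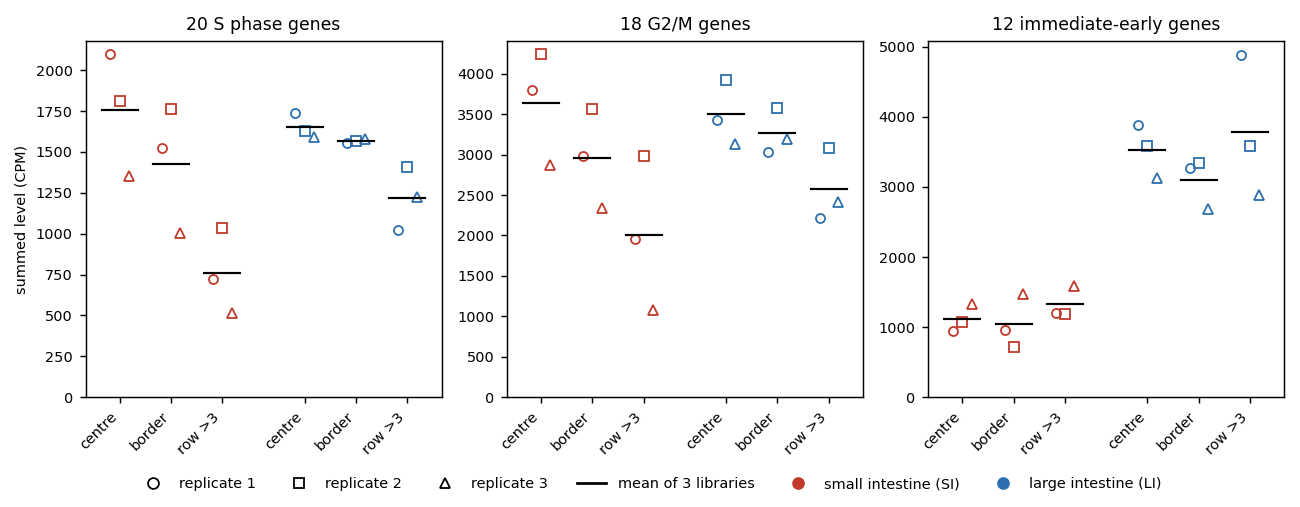
Summed levels in CPM of 20 S phase, 18 G2/M and 12 immediate-early genes in each library; symbols stand for replicates, colours for the site and lines for the mean of 3 libraries. S phase genes reach their lowest levels in SI row >3 cells, the step that also held the lowest Cdk4 and Cdk6, and immediate-early genes are lower in each SI than in each LI library.

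Correlations between members over the 18 libraries are given as a description, since libraries of a group share their sort and those of a replicate may share an animal. The Pearson correlation of log2 CPM was -0.95 between Cdk6 and Rb1, 0.85 between Cdk4 and Cdk6, -0.83 between Cdk4 and Cdkn1a and 0.76 between Cdkn1a and Rb1. These are 4 of the 6 largest in size among the 45 pairs. The inhibitor gene Cdkn1b had 0.66 with Cdk4 and 0.69 with Cdk6, while Ccnd2 with Cdkn1a (-0.01) and Cdkn1c with Rb1 (0.01) were near 0. Among 8690 genes with a mean of at least 10 CPM, the genes most like Cdkn1a were Wdr44 (0.97), Dock8 (0.96) and Ahnak (0.96), and those most like Cdkn1b were Pla2g12a (0.92), Trim32 (0.92) and Lmf2 (0.88). For Ccnd1 they were Dock11 (0.91), Cad (0.91) and Sdad1 (0.90), and for Ccnd2 Chic1 (0.92), Man2a1 (0.91) and 2010300C02Rik (0.91). Without the SI replicate 3 libraries the same genes, in this order, had 0.96, 0.98 and 0.97 with Cdkn1a and 0.89, 0.87 and 0.76 with Cdkn1b. They had 0.91, 0.81 and 0.85 with Ccnd1 and 0.94, 0.90 and 0.91 with Ccnd2.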

How the data were processed

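RNA of EPCAM-positive, GFP-sorted cells was made into stranded SMART-Seq libraries. The authors removed adapters, used STAR both to align reads to mm10 and to count them by gene, and deposited raw counts for each library. A second deposited table, treated as signal, gives every library's counts over 1 size factor, which was constant over 24814 genes to a relative deviation of 5.33e-15, and it gave the normalised counts per library. The submitters' processing notes name bcl2fastq and DESeq2, while the gene annotation release is not given in the sources used here, nor is the strand setting.

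Raw counts were tested with edgeR 4.0.16 under R 4.3.3 (TMM, glmQLFit with its robust option, 1 fit of 6 groups, 12 residual degrees of freedom) over the 26717 genes with a mean count above 0, the filter the study states, and genes were called where the p adjusted by Benjamini-Hochberg was under 0.05. The code was tested on simulated data. Exon lengths and positions were those of GENCODE M21 on GRCm38 and promoters those of RefSeq on GRCm38.p6. Alternatives were RLE factors, scaling by library size only, filterByExpr, no filter, a block for replicate numbers, the SI replicate 3 libraries removed, with and without the block, the groups compared only, each library left out and DESeq2 1.42.0. Figures were drawn with matplotlib 3.10.9.

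To see whether replicate numbers pair libraries, each gene's deviations from its group were correlated between groups over 10223 genes. The coefficients lay between 0.36 and 0.78 within the SI, between 0.44 and 0.68 within the LI and between -0.10 and 0.44 across the sites, where, among groups of the same level, border cells had all 3 above 0.1 and centre and row >3 cells did not. Numbers were therefore taken as pairs within a site, which is an inference. Pairs across the sites are not established, and in each pair of groups across the sites the coefficient was highest in replicate 2. In the SI, replicate 3 libraries, which share LI genes, had 0.61 to 0.78, against 0.36 to 0.66 in replicates 1 and 2. The Y-linked genes Ddx3y and Eif2s3y summed to between 1166 and 2372 counts in replicate 2 and to at most 1 in the other libraries, which sets replicate 2 apart by the sex of the animals. The part of sex and of the LI genes in these coefficients was not tested. P-values measure the spread between these libraries, whose animals are not named.

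The members and lists were chosen with earlier results of these data known. All 10 members are named, of each list up to 3 genes per comparison and direction with the smallest adjusted p, and for 4 members the 3 genes with the highest correlation. The Lgr5 values check the sort.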

Additional observations from a re-analysis of the deposited data

How the results depend on the processing

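The 4 calls in SI row >3 against centre cells held in all 15 alternatives, and their log2 fold changes lay between -1.62 and -1.23 for Cdk4, -2.14 and -1.81 for Cdk6, 3.37 and 3.82 for Cdkn1a, and 0.99 and 1.36 for Rb1. Other counts moved, given here with the share of all genes called in parentheses, and the causes were not tested. The number of members called in SI border against centre cells rose from 0 (0.0112%) to 1 with library size only (0.0225%), the block (2.32%), the SI replicate 3 libraries removed (0.963%) or DESeq2 (0.782%) and to 2 with the block and these libraries removed (2.28%), with 0 to 2 when 1 library was left out. In LI row >3 against centre cells it rose from 0 (0.0187%) to 4 with the block (2.59%), 2 without the SI replicate 3 libraries (1.9%) or with the groups compared only (1.03%), 5 with the block and these libraries removed (6.78%) and 1 in DESeq2 (0.348%). Between the sites it rose from 0 (1.99%) in centre cells to 1 with filterByExpr (4.84%), library size only (2.31%), the block over all libraries (5.61%), the groups compared only (2.61%) or DESeq2 (4.64%) and 2 without the SI replicate 3 libraries (10.9%), with 0 to 2 without 1 library, and from 0 (1.76%) to 1 in border cells without the SI replicate 3 libraries (8.11%). In row >3 cells the 2 (4.09%) became 0 with no filter (1.93%) or library size only (3.83%), 1 with RLE factors (4.21%), the block over all libraries (6.89%) or the groups compared only (3.83%), 4 without the SI replicate 3 libraries (12.2%) and 3 with filterByExpr (8.57%) or DESeq2 (6.34%), with 0 to 2 when 1 library was left out. For the test of the row >3 step between the sites, 0 (0%) became 3 with the block (2.32%), 3 without the SI replicate 3 libraries (3.27%), 6 with both (7.63%) and 1 in DESeq2 (0.558%).

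Direction changed in values that were not called in the main fit, most widely for Cdkn1c. For SI row >3 against centre cells it was 0.22 with the block, 2.28 without the SI replicate 3 libraries and 2.30 with both, and between -0.71 and 2.14 when 1 library was left out. For the row >3 step between the sites it was 0.10, 2.19 and 2.20 under the same settings, and between -0.80 and 2.04 when 1 library was left out. That range was -0.13 to 2.71 for SI border against centre cells and -2.59 to 0.24 for centre cells of SI and LI. In each range the end farther from 0 came without SI centre replicate 3. Its border step between the sites went from -0.59 to 1.75 without the SI replicate 3 libraries. Between border cells of SI and LI, removing these libraries took Cdkn1a from 0.57 to -0.20, Cdk4 from -0.15 to 0.13, Cdk6 from -0.06 to 0.25 and Cdkn1b from -0.06 to 0.06. Ccnd3 in SI border, Rb1 in LI border, Ccnd1 in the border step and Ccne1 in the row >3 step between the sites also changed sign under 1 or more settings, from main values between -0.06 and 0.02.

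The block over all libraries does not rest on established pairs between the sites at any level. With 3 libraries a group, intervals of non-called members often spanned a 2-fold change, and counts of 34 for Cdkn1c in the lowest library carry counting error of their own.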
